A study of Mus musculus with 14 samples.

Results

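Chemosensory receptor genes are the olfactory receptor genes (symbols beginning with Olfr) and the vomeronasal receptor genes of types 1 and 2 (Vmn1r and Vmn2r). Of 1401 such genes in a table of 25965 mouse genes, 51 reached a log2 RPKM of at least 0, an RPKM of 1, in at least 2 of 14 testis libraries, and these 51 are described here. RPKM counts reads per kilobase of gene, scaled to the library's depth. They were 42 of 1085 Olfr genes, 7 of 199 Vmn1r genes and 2 of 117 Vmn2r genes. Because the levels themselves chose the 51 genes, their presence is a description and carries no test.

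The libraries came from adult males carrying Tsga8 (Tsga8+/Y, control) or lacking it (Tsga8-/Y, knockout), in a study of spermatid shaping and male fertility. Whole testis gave 3 libraries per genotype. The other 8 libraries came from tissue cut out of sections by laser capture microdissection to enrich for spermatids, with 2 libraries per genotype from each of 2 regions. The first region was targeted at steps 4 to 8, which are round spermatids. The second combined round spermatids of steps 1 to 3 with elongated ones of steps 9 to 16. Replicates are stated to be 2 or 3 animals, and the labels do not say whether both captured regions came from the same animals. Neither the strain nor the deleted piece of Tsga8 is stated in the labels. Whole testis RNA and captured RNA went through different library kits, a directional one and SMART-seq2, so their levels are set side by side with no test between them.

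Olfactory receptors are G-protein-coupled receptors of olfactory sensory neurons, in which each neuron makes a single receptor type and signals through the G protein subunit Gnal, the adenylyl cyclase Adcy3 and the cyclic nucleotide-gated channel of Cnga2. Vmn1r and Vmn2r receptors detect pheromones in the vomeronasal organ, coupled to Gnai2 and Gnao1, and signal through the channel Trpc2. Transcripts of a minority of olfactory receptors are also known from male germ cells, where Olfr16 has been described in mouse sperm as a receptor for the odorant lyral. For most of the 51 genes no ligand is known with certainty, so their families, neighbours and sequences are given in place of individual roles.

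The sequences below are shown because near-identical copies limit which receptor a read can be assigned to. Mouse olfactory receptors share a coding stretch at the start of the second intracellular loop, around the amino acids aspartate, arginine and tyrosine. It was located in 35 of the 42 Olfr genes and encoded these 3 amino acids in 33 of them. Capitals mark the 9 bases of those codons in 30 bases of coding strand, taken from GENCODE vM21 transcripts on GRCm38 (the mm10 build).
Olfr733: atggcctttGACCGCTACattgccatctgc
Olfr732: atggcctttGACCGCTACattgccatctgc
Olfr126: atgtcttatGATCGCTATgtggccatctgc
Olfr701: atggcctatGATAGGTATgtggccatttgt
Olfr733 and its neighbour Olfr732 were identical over these 30 bases, and so were Olfr112, Olfr127, Olfr128 and Olfr761 among themselves. The stretch is shared across the family, so identity there does not by itself show near-identical copies.

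A stretch of 60 coding bases shows where 4 neighbours on chromosome 17 can be told apart. It was picked for its many differences between them, so it overstates how far they differ over the whole coding DNA. Capitals mark the bases that differ from Olfr127.
Olfr127: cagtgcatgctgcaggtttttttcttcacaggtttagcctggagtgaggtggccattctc
Olfr128: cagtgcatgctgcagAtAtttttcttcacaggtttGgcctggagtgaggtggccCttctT
Olfr126: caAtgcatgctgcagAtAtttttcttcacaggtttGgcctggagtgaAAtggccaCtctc
Olfr761: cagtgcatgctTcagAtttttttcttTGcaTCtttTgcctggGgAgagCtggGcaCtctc
Olfr128 differed from Olfr127 at 5 of the 60 bases, Olfr126 at 7 and Olfr761 at 12. Over the whole coding DNA, Olfr127 was 94.0% identical to Olfr761 and 93.7% identical to Olfr126, and Olfr732 was 93.6% identical to Olfr733. Of all 50-base windows of coding sequence, 49.7% in Olfr128, 45.5% in Olfr127, 36.0% in Olfr126, 24.9% in Olfr761 and 14.3% in Olfr733 also occurred in another annotated transcript. Among the 51 genes, 25 shared over 10% of their windows and 10 shared none, and no source used here says how the authors' counting treated reads of shared windows. The values of these 25 are therefore uncertain as to which copy they came from, with exceptions for Olfr31 and Olfr643. Olfr31 shared its windows mostly with Gm48860, which overlaps it on the opposite strand, so its doubt is between overlapping genes. In Olfr643 only 7 of the 945 bases counted were annotated exon, so its shared windows lay almost wholly outside them.

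Tsga8 itself followed its labels. It stood at 106, 88.6 and 104 RPKM in whole testis controls and at 2.62, 2.12 and 3.20 RPKM in knockouts. In steps 4 to 8 it was 239 and 193 RPKM in controls against 2.18 and 3.76 RPKM in knockouts, and in steps 1 to 3 and 9 to 16 it was 56.9 and 209 RPKM against 9.42 and 6.96 RPKM. Library depths behind the RPKM scale ranged from 30388531 to 49147347 reads for whole testis and from 23467235 to 72022392 for captured tissue. For a gene of 1 kb, an RPKM of 1 stood for 30.4 to 49.1 reads in a whole testis library and for 23.5 to 72.0 in a captured one. Summed markers of elongating spermatids were 6834 to 13046 RPKM in whole testis and 10472 to 97440 RPKM in captured tissue, the highest value being control 1 of steps 1 to 3 and 9 to 16. By region they were 10472 to 22217 RPKM in steps 4 to 8 and 12732 to 97440 RPKM in the second, so their ranges overlapped. Summed Sertoli markers fell between 142 and 279 RPKM in whole testis and between 19.2 and 91.9 RPKM in captured tissue. All 12 round spermatid and all 12 elongating spermatid markers had reads.

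Receptors at an RPKM of 1 were few, and more numerous in captured tissue than in whole testis, whereas receptors with any read were not. Between 5 and 8 receptors reached an RPKM of 1 in a whole testis library, against 27 to 62 in a captured library, whereas all genes at that level numbered 7789 to 8266 and 5666 to 6922. At least 1 read was found for 286 to 346 receptors in a whole testis library and for 145 to 379 in a captured one. Scaled to 1000000 reads of depth, all receptors together took 101 to 162 reads in whole testis but 399 to 922 where tissue was captured. Across the 14 libraries, 543 of the 1401 receptors had no read in any library. Another 106 reached an RPKM of 1 in exactly 1 library, in each case a captured one. Those 106 peaked at a median of 2.20 RPKM and at most 15.6 RPKM, and 3 of them had 0 reads in the other 13 libraries. Of the 51 genes, 20 passed in exactly 2 libraries, 9 in 3, and 2 in all 14.

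**Figure D1:**
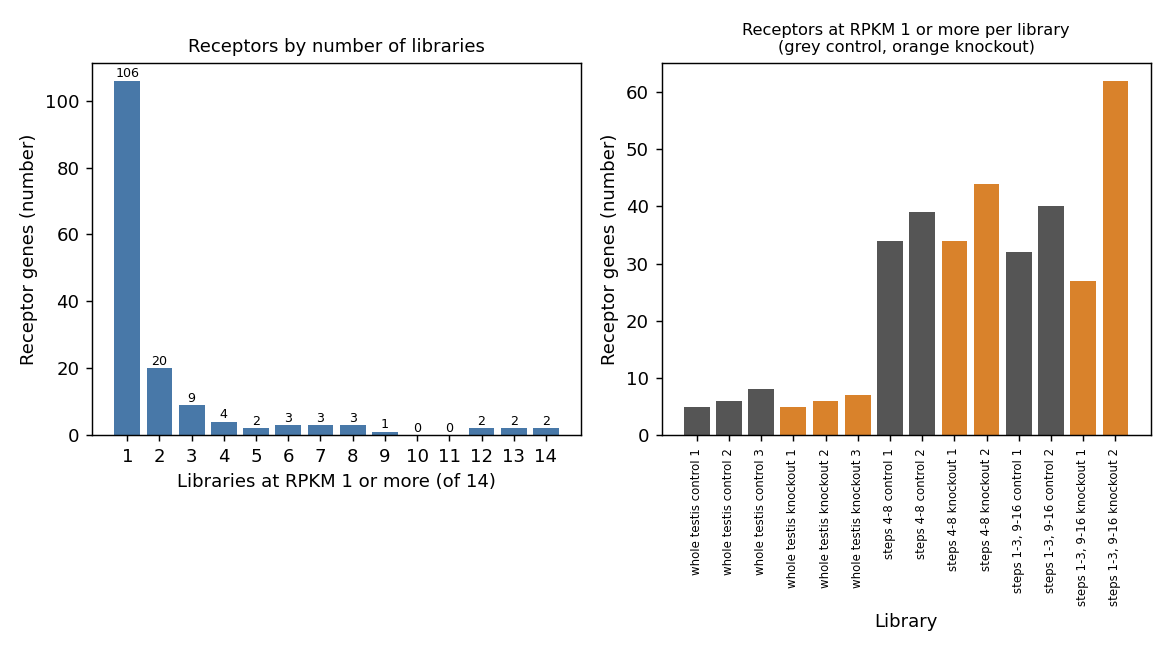
Left, number of receptor genes (vertical axis) by the number of the 14 libraries in which they reached an RPKM of at least 1 (horizontal axis). Right, number of receptors at that level in each library, with grey bars for controls and orange bars for knockouts. The 106 receptors seen in 1 library form the tallest bar, and whole testis libraries held 5 to 8 receptors against 27 to 62 in captured libraries.

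Every one of the 51 genes would have been chosen from the captured libraries alone, since each passed in at least 2 of those 8. Only 8 reached an RPKM of 1 in any whole testis library, namely Olfr733, Olfr128, Olfr112, Olfr701, Olfr127, Olfr303, Vmn1r181 and Olfr31. The first 4 of these did so in all 6. Below that level, 37 of the 51 had at least 1 read in every whole testis library, 26 had reads in all 14 libraries, and 5 (Olfr348, Olfr532, Olfr971, Olfr63 and Olfr97) had no read in whole testis. The genes just inside the threshold, by their second highest library, were Olfr212 at 1.06 RPKM, Olfr790 at 1.13 and Olfr97 at 1.18. Just outside were Olfr1271 at 0.965 RPKM, Olfr1414 at 0.938 and Olfr543 at 0.922.

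Olfr16 was not among the 51. It had 0 reads in all 6 whole testis libraries, where a count of 0 allows up to 3 reads, an RPKM of 0.0581 to 0.0940. It reached 4.93 RPKM, from 180 reads, in knockout 2 of steps 4 to 8, and had at most 6 reads in any other captured library.

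**Figure D2:**
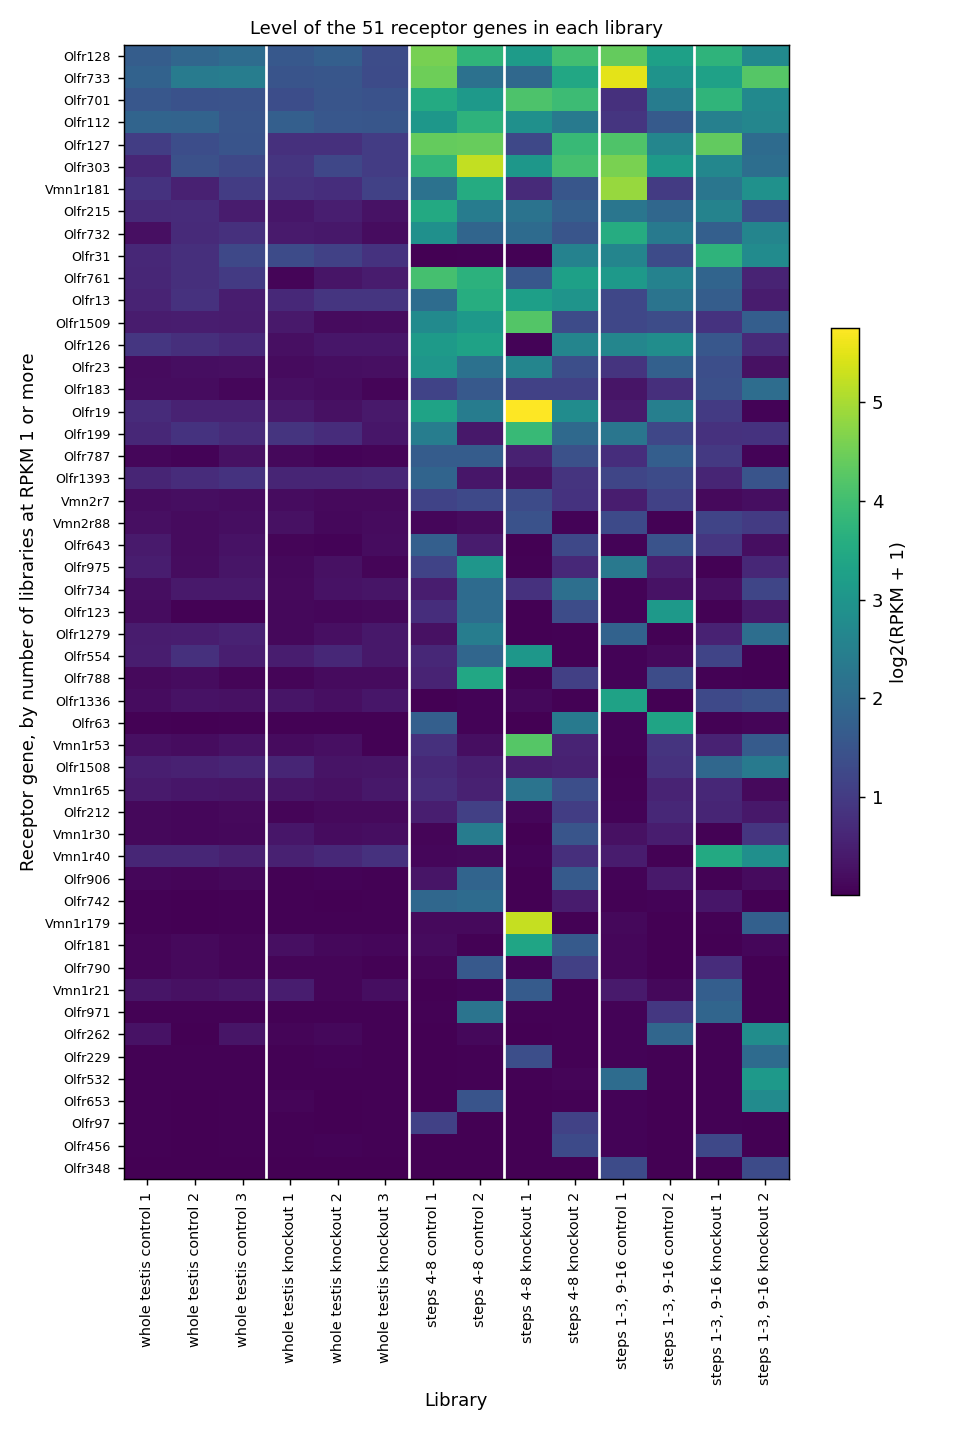
Level of the 51 genes (rows, ordered by the number of libraries at an RPKM of at least 1) in the 14 libraries (columns, white lines between groups), as log2(RPKM + 1). The top rows, from Olfr128 and Olfr733 to Olfr303, are visible in nearly every column, whereas most lower rows are lit in isolated captured libraries.

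Olfr733 and Olfr128 were the receptors at an RPKM of at least 1 in all 14 libraries. Olfr733 lies on chromosome 14 from 50298337 to 50299330 on the minus strand (mm10) and has 1 coding exon. It stood at 2.52, 4.26 and 4.40 RPKM in whole testis controls (76, 208 and 145 reads) and at 1.84, 1.89 and 1.48 RPKM in knockouts (61, 84 and 51 reads). In steps 4 to 8 it was 21.5 and 3.41 RPKM in controls and 2.84 and 9.90 RPKM in knockouts, and in steps 1 to 3 and 9 to 16 it was 44.6 and 6.73 RPKM against 8.72 and 17.8 RPKM. The whole testis genotypes did not overlap, whereas the captured ones did in both regions, and replicates of captured controls lay far apart. Olfr732, beside it, was at 0.138 to 0.751 RPKM in whole testis and at 1.87 to 10.7 RPKM in captured tissue.

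Olfr128 lies on chromosome 17 from 37923538 to 37924555 on the plus strand, with 1 coding exon. Its levels were 2.26, 2.72 and 3.08 RPKM in whole testis controls and 2.00, 2.33 and 1.53 RPKM in knockouts. In captured tissue it was 22.7 and 12.7 RPKM in controls and 7.89 and 15 RPKM in knockouts of steps 4 to 8, then 20.1 and 8.67 RPKM in controls and 12.4 and 5.69 RPKM in knockouts of the second region. It stayed within 5.69 to 22.7 RPKM over the 8 captured libraries, and the genotypes overlapped in all 3 comparisons.

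Olfr112 and Olfr701 passed in 13 libraries each, missing the threshold in control 1 of steps 1 to 3 and 9 to 16. Olfr112 (chromosome 17 from 37563228 to 37567094, minus strand) was at 2.60, 2.56 and 1.88 RPKM in whole testis controls and 2.35, 1.95 and 1.89 RPKM in knockouts. Its captured levels were 7.21 and 12.3 RPKM in controls and 6.39 and 4.07 RPKM in knockouts of steps 4 to 8, then 0.849 and 2.08 RPKM in controls and 4.65 and 5.26 RPKM in knockouts of the other region. Controls were thus above knockouts in one region and below them in the other. Olfr701 (chromosome 7 from 106814144 to 106820709, plus strand) was at 1.94, 1.75 and 1.79 RPKM in whole testis controls and 1.58, 1.88 and 1.72 RPKM in knockouts. It was at 10.5 and 7.62 RPKM in controls and 16.8 and 14.4 RPKM in knockouts of steps 4 to 8, and at 0.753 and 4.36 RPKM against 12.7 and 5.66 RPKM in the second region. Its knockouts were above its controls in both captured regions and overlapped them in whole testis.

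Olfr127 and Olfr303 passed in 12 libraries each. Olfr127 (chromosome 17 from 37903522 to 37904616, plus strand) was at 1.08, 1.56 and 1.82 RPKM in whole testis controls and 0.738, 0.757 and 1.03 RPKM in knockouts, without overlap. It was at 20.1 and 20.2 RPKM in controls of steps 4 to 8 against 1.39 and 13.7 RPKM in knockouts, and at 16.9 and 5.23 RPKM against 19.8 and 3.03 RPKM in the second region, where the genotypes overlapped. Olfr303 (chromosome 7 from 86394496 to 86395535, minus strand), which shares no 50-base window with another transcript, was at 0.538 to 1.70 RPKM in whole testis and 3.21 to 36.1 RPKM in captured tissue.

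Olfr31 was near 0 in most libraries of 1 captured region. This gene (chromosome 14 from 14328113 to 14329066, plus strand) was at 0.552, 0.725 and 1.39 RPKM in whole testis controls and 1.51, 1.17 and 0.788 RPKM in knockouts. In steps 4 to 8 it had 0 and 1 reads in controls and 1 and 160 reads in knockouts, the last at 4.82 RPKM. In steps 1 to 3 and 9 to 16 it was at 5.18 and 1.5 RPKM in controls and 12.4 and 5.86 RPKM in knockouts. In 3 of the 4 libraries of steps 4 to 8 it was thus near 0, while all 4 of the other region passed. The gene overlaps Gm48860 on the opposite strand and shares 70.5% of its 50-base windows, mostly with it, and SMART-seq2 does not mark strand, so the captured reads cannot be assigned to one of the pair.

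Among the vomeronasal receptors, Vmn1r181 passed in 9 libraries and each of the others in 2 or 4, although Vmn2r7, Vmn2r88, Vmn1r53, Vmn1r65 and Vmn1r181 had reads in all 14. Vmn1r181 was at 0.452 to 1.18 RPKM in whole testis and 0.621 to 28 RPKM in captured tissue. Vmn1r40 was at 0.420 to 0.774 RPKM in all 6 whole testis libraries, at 0.0436 to 0.709 RPKM in steps 4 to 8, and at 10.2 and 6.32 RPKM in the knockouts of the other region, against 0.365 RPKM and 0 reads in its controls. Vmn1r179 and Vmn1r53 peaked in knockout 1 of steps 4 to 8, at 36.9 and 17.9 RPKM, and stayed at or under 2.40 and 2.17 RPKM in every other library. Vmn1r65 was highest in the same library at 3.65 RPKM, Vmn1r21 was above 2 RPKM in 1 library of each captured region (2.13 and 2.31 RPKM), and Vmn1r30 peaked at 4.35 RPKM in control 2 of steps 4 to 8.

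Both Vmn2r genes have several exons, with 6 of them coding, and long spans. Vmn2r7 spans 154106 bases on chromosome 3, and took the most reads of all receptors in 10 of the 14 libraries, with 563 to 1305 reads per whole testis library and 636 to 13798 per captured one. Spread over that span, these reads gave only 0.106 to 0.172 RPKM in whole testis and 0.107 to 1.51 RPKM in captured tissue. Per kilobase of annotated exon within the span, as if every read were exonic, its median would be 5.99 in whole testis controls and 47.1 in captured controls, which moves it from rank 31 and 23 to rank 1 among the 50 genes so scaled. The order of levels given here is per span. It also shares 68.1% of its 50-base windows, mostly with Vmn2r6, and overlaps a pseudogene on its own strand. Vmn2r88 was at 0.0867 to 0.197 RPKM in whole testis and passed in 4 captured libraries, the highest at 1.72 RPKM. Vmn1r90, outside the 51, is another long gene of 92413 bases with 3607 reads over the whole testis libraries and at most 0.282 RPKM there, so a level per span is not a level per transcript for such genes.

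Most of the 51 genes were measured over their coding part only. The span behind the RPKM had a median of 1020 bases, within 200 bases of the annotated coding span in 40 genes and shorter than the median exonic length of 3147 bases in GENCODE. Of the 51, 48 have 1 coding exon. Reads in untranslated exons beyond the span were outside these values, and 6 genes overlap another annotated gene (Vmn2r7, Vmn2r88, Vmn1r53, Olfr643, Olfr31 and Olfr181).

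In position, the genes were spread over 11 chromosomes. Those that held none included chromosome 13 with 45 receptors, chromosome 1 with 27 and the X chromosome with 7. Chromosome 14 held 8 of 41 receptors (19.5%) and chromosome 2 held 2 of 282 (0.709%). Of the 51, 22 lay within 100 kb of another of the 51. Closeness is common in these families, since 1342 of all 1401 receptors lay within 100 kb of another receptor. On chromosome 17, in the olfactory receptor cluster linked to the major histocompatibility complex, 5 of 7 receptors between 37795435 and 37953022 (Olfr123, Olfr126, Olfr127, Olfr128 and Olfr761) were among the 51. The other receptors of that stretch, Olfr124 and Olfr125, stayed at or under 0.258 RPKM in every library. Members bound that stretch, and over the wider one from Olfr97 to Olfr761 (37231414 to 37953022) 7 of 29 receptors were among the 51, with other receptors there reaching 2.48 RPKM. On chromosome 14, 4 of 10 receptors between 50281228 and 50516240 (Olfr732, Olfr733, Olfr734 and Olfr742) were among the 51, with the others reaching 2.97 RPKM. Members bound this stretch too. No member lay within 20 kb of a non-receptor gene at a median of 10 RPKM or more in whole testis controls, the median distance to such a gene being 758 kb. The closest was Vmn1r40, at 38674 bases from Txnrd3, a thioredoxin reductase known from testis.

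The median replicate SD was higher for these receptors than over all genes tested. Among the 7 of the 51 genes that passed the whole testis filter, described below, the median SD of log2(RPKM + 1) was 0.223 in controls and 0.125 in knockouts, against 0.105 and 0.0911 over all 8146 genes tested. In captured tissue all 51 passed the filter, and the median SD was 0.489 in controls and 0.733 in knockouts of steps 4 to 8, against 0.327 and 0.351 over all 7857 genes tested. In steps 1 to 3 and 9 to 16 it was 0.572 and 0.624, against 0.439 and 0.299. These figures compare the receptors with all tested genes and not with genes of equal level, and the captured values are the ones that chose the 51.

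In whole testis, whose levels did not decide which genes were chosen, the highest of 3 libraries exceeded the lowest by a median of 1.76 times in controls and 1.55 times in knockouts among the 12 receptors at an RPKM of 1 in 7 or 8 captured libraries. It did so by 1.47 and 1.77 times among the 10 receptors at that level in 4 to 6 captured libraries. Among the other 29, medians over those with reads in every library of the group (17 in controls, 18 in knockouts) were 1.48 and 2.00 times. The 3 classes thus had no common order in the 2 genotypes, and over all 8146 genes tested the median was 1.21 and 1.18 times.

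Single libraries accounted for the largest levels. Olfr19 was at 52.8 RPKM in knockout 1 of steps 4 to 8 and at 6.01 RPKM in the other replicate, with 0.0501 to 9.05 RPKM in the remaining captured libraries. That same library held the peaks of Vmn1r179 and Vmn1r53, and was also the captured library with the fewest receptors detected by at least 1 read, 145 against 197 to 379 elsewhere. Control 1 of steps 1 to 3 and 9 to 16 held the peaks of Olfr733 and Vmn1r181 and the highest summed elongating spermatid markers. Knockout 2 of that region had the most receptors at an RPKM of 1, 62 in number, of which 26 were among the 51. The part of these library features in the receptor levels was not tested.

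In whole testis, the loss of Tsga8 went with a lower level of 1 of the 7 receptors that could be tested. The limma fit on log2(RPKM + 1) took the 8146 genes that reached an RPKM of 1 in 3 or more of the 6 libraries, and calls were made below 0.05 after Benjamini-Hochberg adjustment over all of them. The mean RPKM of Olfr733 was 3.72 ± 1.05 among controls and 1.74 ± 0.222 among knockouts (SD, n = 3 each), a limma log2 difference of -0.76 ± 0.16 (SE, adjusted p = 0.0380). Lower calls made up 2.04% of all genes tested, higher calls 4.11% and both together 6.15%, and 0 of the 7 receptors were called higher. Of the 501 calls over all genes 66.9% were higher, a share that was 38.5% with median centring and 42.1% with quantile normalization. The median difference of the 7 was -0.12, against 0.090 for all genes tested. In bulk samples fewer cells of a type and less RNA per cell cannot be told apart.

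The Olfr733 call depended on which libraries were used. Without control 2, control 3, knockout 2 or knockout 3 the differences were -0.67, -0.65, -0.81 and -0.70 and did not pass (limma adjusted p = 0.129, 0.121, 0.130 and 0.155). Leaving out those libraries also cut the calls over all genes from 501 to 76, 68, 83 and 74. It did not pass without the filter on low values (difference -0.76, adjusted p = 0.107) or with quantile normalization (-0.83, adjusted p = 0.0513). Summed elongating spermatid markers were 8133, 12233 and 13046 RPKM in controls and 6834, 9465 and 8834 RPKM in knockouts, and control 1 was the lowest control for both these markers and Olfr733. Summed Sertoli markers were 207, 142 and 152 RPKM in controls and 212, 235 and 279 RPKM in knockouts, with 2 of 13 tested markers called higher. Summed Leydig markers were 85.9, 139 and 143 RPKM in controls and 64.6, 273 and 355 RPKM in knockouts, with 0 of 6 called. Summed macrophage markers were 6.15, 6.09 and 6.69 RPKM against 5.94, 12.7 and 10.8 RPKM, with 1 of 4 called higher. Their part in the result was not tested.

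Of the other 6 tested receptors none passed. Olfr127 averaged 1.49 ± 0.374 RPKM in controls and 0.841 ± 0.163 in knockouts (SD), without overlap, and its limma difference of -0.43 ± 0.12 missed the threshold (adjusted p = 0.0691). When libraries were paired by their number as a block, it passed (adjusted p = 0.0290), which made 2 receptors lower. Olfr128 differed by -0.32 ± 0.12 (adjusted p = 0.132), and Olfr31 by 0.20 ± 0.17 (adjusted p = 0.453). Olfr112, Olfr701 and Olfr303 differed by -0.12, -0.055 and -0.053, with limma adjusted p values of 0.454, 0.604 and 0.871. Knockouts lay below controls without overlap in 2 of the 7, against 8.24% of all tested genes, and above them in 0, against 24.6%.

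Receptors under the RPKM filter were tested on whole reads recovered from the RPKM values, with limma voom over genes with at least 10 reads in at least 3 libraries. Of the 51 genes 28 could be tested, and 3 were called lower, against 7.12% of 19140 genes called lower, 5.34% called higher and 12.5% in both directions together. Olfr126 had 26, 34 and 19 reads in controls and 6, 12 and 9 reads in knockouts, at 0.891, 0.721 and 0.597 RPKM against 0.187, 0.280 and 0.271 RPKM. Every control was above every knockout, and the voom log2 difference was -1.51 ± 0.35 (adjusted p = 0.0214). Olfr761 had 16, 34 and 31 reads in controls and 2, 11 and 12 reads in knockouts, at 0.542, 0.712 and 0.962 RPKM against 0.0616, 0.253 and 0.357 RPKM, again without overlap (difference -1.88 ± 0.51, voom adjusted p = 0.0371). Olfr733 was also called, with a difference of -1.08 ± 0.26 (adjusted p = 0.0256). In 7 of the 28 the knockouts lay below the controls without overlap, and in 0 above, against 16.6% and 15.7% of the 19140 genes.

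**Figure D3:**
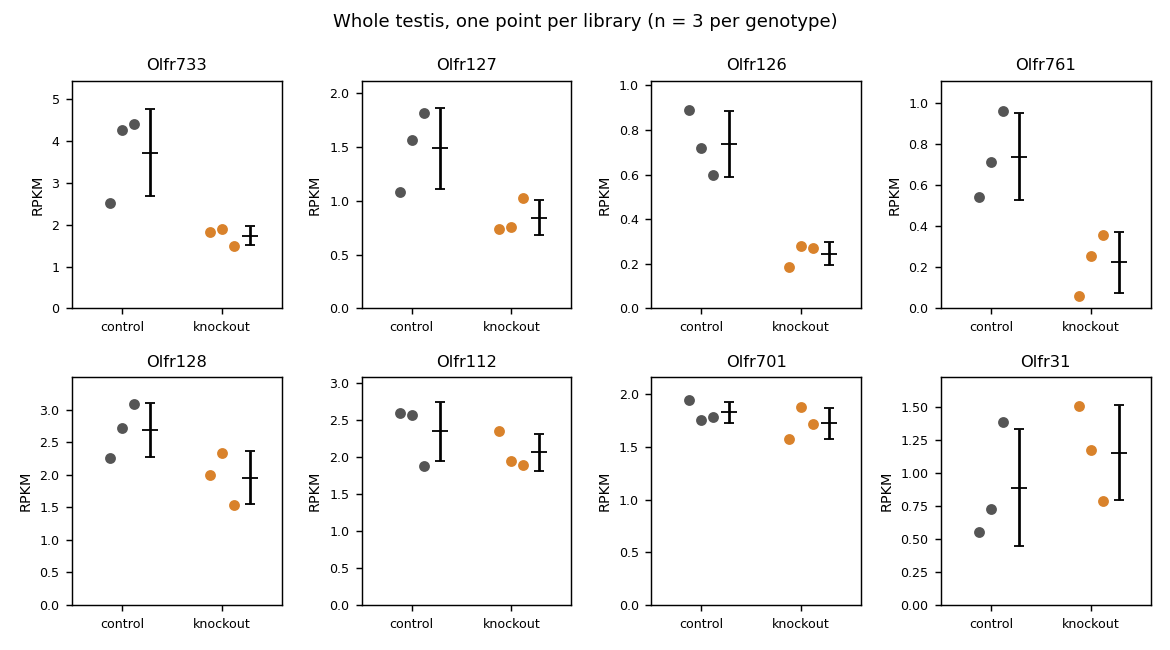
RPKM of 8 receptors in whole testis, 1 point per library (grey control, orange knockout), with the mean and SD of 3 libraries as a black bar beside the points. Each panel starts at 0 and has its own vertical scale. Controls and knockouts are apart for Olfr733, Olfr127, Olfr126 and Olfr761 and overlap for Olfr128, Olfr112, Olfr701 and Olfr31.

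In captured tissue no receptor was called in any comparison. A single limma model of all 8 libraries estimated each group's mean for the 7857 genes that reached an RPKM of 1 in 2 or more of them, and 0.0% of them were called between genotypes in either region, between regions in either genotype, or for the difference of the genotype effects. Voom on the recovered reads of 19797 genes also called 0.0% in each. Tsga8 itself was among the genes tested and was not called between genotypes in either region. The round spermatid markers, a list that includes it, had lowest limma adjusted p values of 0.0569 and 0.194 there. These fits thus missed a known loss, and the absence of calls does not show that the receptors were unchanged. At an unadjusted p under 0.05 the limma fit had 285 genes in steps 4 to 8, 6 of them among the 51, and 525 genes in steps 1 to 3 and 9 to 16, again with 6 of the 51. Voom had 667 and 825 such genes, with 2 and 3 of the 51. Passing the filter and being among the 51 were the same condition here. For 5 receptors (Vmn1r40, Vmn1r65, Olfr742, Olfr1508 and Olfr181) exactly 2 libraries passed and both belonged to 1 group, so these 5 had to differ between groups, and no weight is given to their small p values. Without them, 3 and 4 of the remaining 46 had such a p in the limma fit.

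Olfr126 and Olfr761 were below controls in both captured regions. Olfr126 (chromosome 17 from 37850594 to 37851553, plus strand) was at 7.85 and 9.01 RPKM in controls and 0.0423 and 5.15 RPKM in knockouts of steps 4 to 8, and at 5.24 and 6.03 RPKM against 1.94 and 0.604 RPKM in the second region. The limma differences were -1.89 ± 0.73 and -1.61 ± 0.73 (adjusted p = 1.00 and 0.759). Olfr761 (chromosome 17 from 37952051 to 37953022, minus strand) was at 15.7 and 11.9 RPKM in controls against 1.97 and 8.58 RPKM in knockouts of steps 4 to 8, and at 7.72 and 4.85 RPKM against 2.64 and 0.491 RPKM in the second region. Its differences were -1.46 ± 0.65 and -1.62 ± 0.65 (limma adjusted p = 1.00 and 0.717). None of these 4 differences passed, and the knockout replicates lay far apart.

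Among the 28 of the 51 genes tested by voom in both tissues, Olfr126 and Olfr761 were the 2 whose knockouts lay below the controls without overlap in whole testis and in both captured regions. Among 18173 genes so tested, 0.858% did so, and 0.545% lay above the controls in all 3 comparisons, as did 0 of the 28. The captured comparisons among these use the values that chose the 51, so the counts are a description and carry no test. The 2 receptors lie in the same stretch of chromosome 17 and their coding DNA is 92.9% identical, so they are not independent cases. In the same stretch, the genotypes overlapped for Olfr127 in the second captured region and for Olfr128 in all 3 comparisons.

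In steps 4 to 8, 11 of the 51 receptors were lower without overlap in knockouts and 4 higher, against 13.6% and 15.3% of the 7857 genes. Without the 5 receptors that had to differ, 10 of 46 were lower and 2 higher, and since these libraries chose the members the counts are a description. Olfr127 was among the lower ones. Olfr215, at 10.3 and 4.32 RPKM in controls and 3.59 and 2.37 RPKM in knockouts, was another, whereas Olfr701 was among the higher ones. In knockout 1 Olfr126 had 2 reads, against 543 and 406 in the controls. The median difference of the 51 was -0.22, and of the 46 it was -0.26, against 0.013 for all genes tested. Summed elongating spermatid markers were 18760 and 22217 RPKM in these controls and 10568 and 10472 RPKM in the knockouts, and summed round spermatid markers, a list that includes Tsga8, were 1108 and 1075 RPKM against 854 and 888 RPKM. Without Tsga8 the round spermatid sums were 869 and 882 RPKM in controls and 851 and 884 RPKM in knockouts, which overlap. Summed Sertoli markers were 45.3 and 19.2 RPKM in controls and 51.7 and 78.0 RPKM in knockouts, without overlap. Their part was not tested.

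In steps 1 to 3 and 9 to 16, 6 receptors were lower without overlap and 6 higher, against 15.7% and 20.0% of all tested genes, and the median difference of the 51 was -0.0031, against 0.043. Without the 5 receptors that had to differ, 6 of 46 were lower and 4 higher, with a median of -0.067. Olfr112 and Olfr701, described above, were higher in knockouts by 1.32 ± 0.47 and 1.64 ± 0.61 (limma adjusted p = 0.626 and 0.656). Olfr303 was at 23.3 and 7.78 RPKM in controls and 5.35 and 3.21 RPKM in knockouts, a difference of -1.50 ± 0.69 (adjusted p = 0.760). Control 1 of this region, in which Olfr112 and Olfr701 were lowest, had 97440 RPKM of summed elongating spermatid markers against 12732 to 30018 RPKM in the other 3 libraries. The part of this library in the differences was not tested.

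Set against whole testis, where Olfr112 and Olfr701 were not called, their effects in this region differed by 1.44 ± 0.48 and 1.69 ± 0.62, which did not pass over the genes tested in both fits (adjusted p = 0.112 and 0.171, normal approximation to the difference of the limma estimates). No receptor tested in both passed this comparison in either region.

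**Figure D4:**
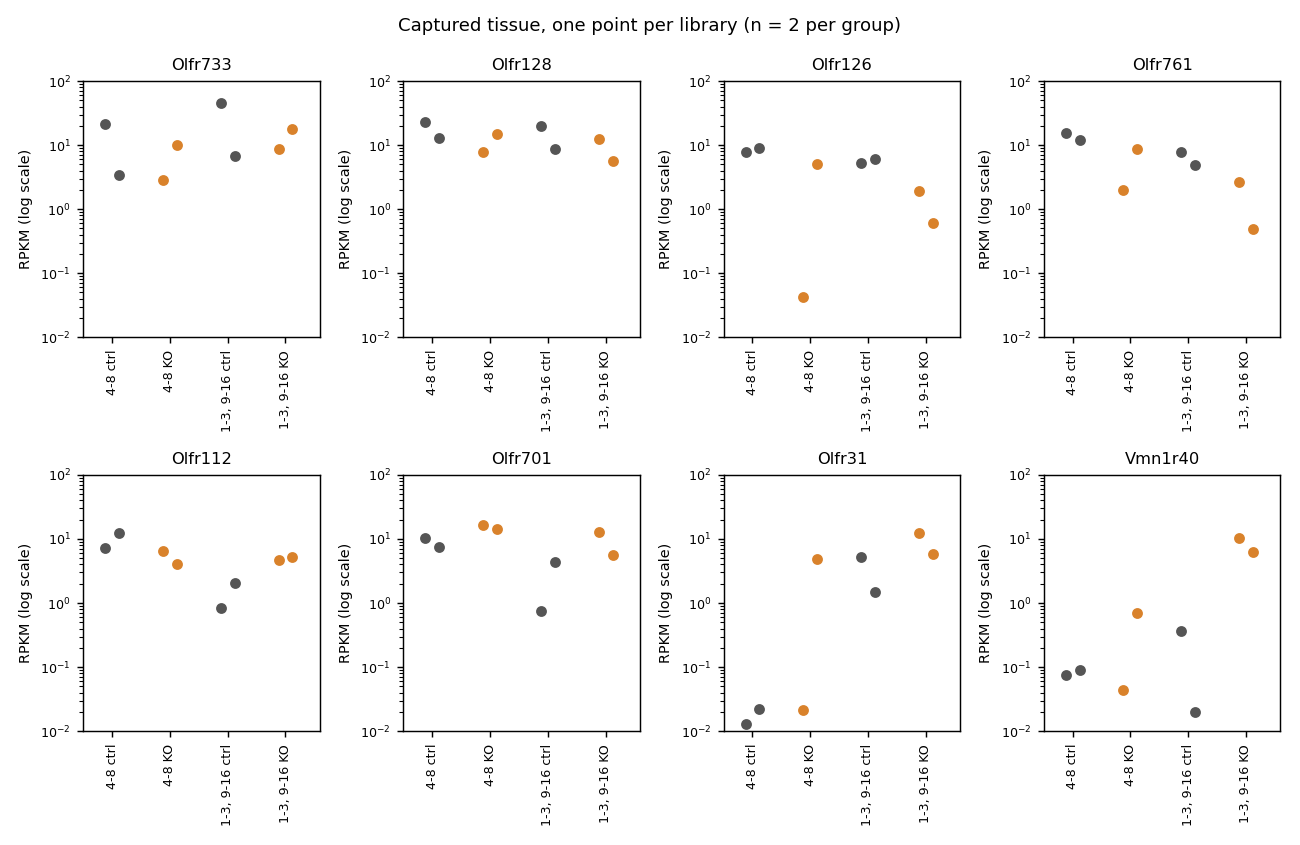
RPKM of 8 receptors in captured tissue on a log scale, 1 point per library with 2 libraries per group (grey control, orange knockout, KO for knockout), by region given as spermatid steps. A library with 0 reads is drawn at the value the deposited table gives it, as if it had 0.9 read. Olfr126 and Olfr761 are lower in knockouts of both regions, and Olfr31 is near 0 in 3 of the 4 libraries of steps 4 to 8.

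Between regions in controls, Olfr112 and Olfr701 were lower in steps 1 to 3 and 9 to 16 than in steps 4 to 8 by differences of -2.13 ± 0.47 and -1.70 ± 0.61, and Olfr31 was higher by 1.95 ± 0.78, none of them passing (limma adjusted p = 0.395, 0.406 and 0.438). In controls 14 of the 51 were lower in the second region without overlap and 3 higher, against 20.6% and 20.2% of the 7857 genes. In knockouts 9 were lower and 10 higher, against 20.9% and 24.9%. Without the same 5, 13 of 46 were lower and 3 higher in controls, and 7 lower and 8 higher in knockouts. Olfr31 was higher without overlap in both genotypes. In knockouts Olfr19 had a difference of -3.75 ± 0.96 (adjusted p = 0.399), with the library at 52.8 RPKM among the 4 compared. The genotype effect differed between regions by 2.09 ± 0.66 for Olfr112, which was the largest such difference among receptors at an RPKM of at least 1 in 13 or more libraries and did not pass (limma adjusted p = 1.00).

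Of the genes of odour transduction in olfactory neurons, Cnga2 and Omp were near 0 in every library, and Gnal and Adcy3 were low in whole testis. Cnga2, the channel subunit of olfactory cilia, was at no more than 0.0492 RPKM in any library, and Omp, the marker of mature olfactory neurons, at no more than 0.0559 RPKM. Gnal was at 0.187 to 0.261 RPKM and Adcy3 at 0.211 to 0.347 RPKM in whole testis. The 20 genes of olfactory transduction other than receptors summed to 70.5 to 80.8 RPKM in whole testis and 43.0 to 166 RPKM in captured tissue. Of them, 6 passed the whole testis filter and 1 was called, against 6.15% of all genes. That was Atp1b2, a subunit of the sodium pump, at 6.94, 5.13 and 5.12 RPKM in controls and 9.05, 8.91 and 11.2 RPKM in knockouts (limma difference 0.68 ± 0.13, adjusted p = 0.0307).

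Of 22 genes of receptor traffic and olfactory neuron identity, 4 passed the whole testis filter and 0 were called, at an adjusted p of 0.223 or more. Reep6, a membrane-shaping protein of the family that helps receptors reach the surface, stood at 56.0 to 84.8 RPKM in whole testis and 15.2 to 73.1 RPKM in captured tissue. Rtp1 and Rtp2, chaperones needed for olfactory receptors at the surface of olfactory neurons, stayed at or under 0.637 and 0.0549 RPKM. Lhx2, a homeobox factor of olfactory neurons, was at 0.507 to 0.669 RPKM in whole testis and 1.05 to 7.52 RPKM in captured tissue. Of 12 genes of vomeronasal transduction 4 passed and 0 were called. Trpc2 was at 1.37 to 1.73 RPKM, Gnai2 at 2.36 to 4.08 RPKM and Gnao1 at 0.685 to 0.901 RPKM in whole testis. Of 59 other chemosensory receptor genes (trace amine, taste and formyl peptide receptors) 29 had no read in any library, 1 passed the whole testis filter and 0 were called. Of 12 genes of cyclic AMP and calcium signalling in sperm, such as the sperm channel genes Catsper1 to Catsper4 and the soluble adenylyl cyclase Adcy10, 9 passed and 0 were called.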

How the data were processed

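RNA sequencing of 14 libraries was used, in the groups of the labels. The submitters' processing notes name HISAT2 2.1.0, Trim Galore 0.4.0, FastQC and the mm10 build. For the counting tool, annotation, strand setting and treatment of reads with several matches, the sources used here give nothing. The authors deposited log2 RPKM values, which were raised back to RPKM with pandas 2.3.3 in Python 3.11.15 (the plan had assumed RPKM). Lengths are gene spans, introns included, and genes with 0 reads had been entered as 0.9 read. Whole reads were recovered from the spans, with the entries of 0.9 read set to 0. Counting those entries as whole, 99.87% of values were no more than 0.05 away from a whole number. Intervals and limits for 0 reads cover counting error only, since reads carry no molecular identifiers.

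The members and gene lists were chosen with earlier results of these data known. Named genes were those with the highest levels, the lowest p values per comparison or the largest ranges, the vomeronasal members, the edges of the rule, Tsga8 and Olfr16. The comparisons used limma 3.58.1 under R 4.3.3 (intensity trend, two-sided, Benjamini-Hochberg over all tested genes) on log2(RPKM + 1), a scale that understates the change of low genes. Whole testis and captured libraries were fitted separately, and p values measure the spread between these libraries. Alternatives were a pseudocount of 0.1 or 4, no filter, limma voom on recovered reads, median centring, quantile normalization, a replicate block and leaving out each library. Same-numbered whole testis libraries deviated together (correlations of 0.329, 0.362 and 0.148), as did control 3 and knockout 2 (0.299). The other differently numbered ones correlated at -0.442 to 0.0329. Pairing by number therefore rests on the data alone, is not stated in the labels and is uncertain. It was left out of the main fit and used only as an alternative. Replicates differed by a chi-square of 10.4 to 535 per gene, so none was counted as a repeat of another. The fits were also run on simulated data, in which only genes above the RPKM threshold in every library were changed. That run does not cover most of these receptors, and no weight is placed on it. Sequences came from GENCODE vM21 transcripts, matched by symbol.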

Additional observations from a re-analysis of the deposited data

How the results depend on the processing

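With RPKM 1 required in 3 or more libraries 31 receptors were detected, with RPKM 0.5 in 2 or more 92, and with 10 recovered reads in 2 or more 242, against 51 as reported. Requiring RPKM 2 in 2 or more left 36. Leaving out each library in turn, an alternative chosen after seeing the data, left 42 to 51. The number of receptors called lower in whole testis, 1 as reported, was 3 with limma voom on recovered reads, 0 without a filter, 0 with quantile normalization and 0 to 2 when each library was left out in turn. The replicate block, which pairs whole testis libraries by number, gave 2, and calls over all genes rose from 501 to 740. In captured tissue the block, where same-numbered libraries correlated at -0.087 to 0.197 and were not taken as pairs, moved no count of calls from 0. Without control 1 of steps 1 to 3 and 9 to 16, the region difference of Olfr1336 in controls turned from 1.63 to -0.015, and without control 2 it was 3.28. That gene had 200 reads in the library left out and 0 in the other control. Beyond the reversal, 363 values of single named receptors kept their direction and their side of the threshold, 6 lost a call and 2 gained one, both for Olfr127, with the block or without control 1. Captured groups of 2 libraries limit every captured comparison, since the lone replicate left in a reduced group is assumed to vary like the other groups.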

Other observations

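Besides the receptors that recurred, 9 of the 51 reached an RPKM of 1 in knockout libraries alone (Olfr456, Vmn1r21, Vmn1r40, Vmn1r53, Vmn1r65, Vmn1r179, Olfr229, Olfr1508 and Olfr181), and 2 in control libraries alone (Olfr975 and Olfr742). All 11 were seen in 2 or 3 captured libraries, the ones that chose the members, and no test was made of this split. Its share over all genes was not computed. In steps 4 to 8, 61 receptors, members or not, reached an RPKM of 1 in a knockout library and 53 in a control one. In steps 1 to 3 and 9 to 16 these numbers were 74 and 58. Olfr1508 had 59, 105 and 82 reads in whole testis controls and 81, 50 and 43 reads in knockouts, so it was present in both genotypes below an RPKM of 1. In captured tissue it was at 2.77 and 4.11 RPKM in knockouts of steps 1 to 3 and 9 to 16, against 0 reads and 0.761 RPKM in the controls.

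Some receptors outside the 51 had many reads over long spans. Vmn2r111 had 741 reads over the whole testis libraries and 2755 over the captured ones, and Olfr872 had 580 and 1927, with no library above 0.864 RPKM for either. A rule on reads instead of RPKM would include such genes.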
